A study of Mus musculus with 6 samples.

Results

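The genes described here are those of cohesin and of the enzymes that acetylate it, measured by PRO-seq in proliferating muscle stem cells (MuSCs). They are 10 listed genes, namely *Esco1*, *Esco2*, *Smc1a*, *Smc3*, *Rad21*, *Stag1*, *Stag2*, *Nipbl*, *Wapl* and *Cdca5*, found by symbol among the 14546 genes of the deposited table. All 10 passed the filter on low values. *Esco2* was chosen on its low gene body value in the *Kmt5b* sKO libraries, so every value of *Esco2* in the comparison of genotypes is a description and carries no test. The other genes were listed because they encode the same complex or proteins that act on it, but with earlier results of these data known. The same holds for the lists of further genes given below. Their p-values and counts of calls are thus not independent of these data.

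PRO-seq maps engaged RNA polymerases: nuclei extend their nascent RNA with biotin-labelled nucleotides, which are then pulled down and read. Both groups hold 3 libraries from mice that carry *Pax7*CreERT, a tamoxifen-dependent Cre recombinase driven by the *Pax7* gene of muscle stem cells. The Ctrl libraries come from animals with wild-type *Kmt5b* (also named *Suv4-20h1*), the gene of a histone H4 lysine 20 methyltransferase, and the *Kmt5b* sKO libraries from animals with floxed *Kmt5b* alleles. The study's methods describe cells purified from limb and trunk muscle with a magnetic isolation kit and then cultured, and tamoxifen given to mice of both groups, all on a C57BL/6 background. The mice were young adults of both sexes by the study's methods, with no age given for a single library, and the replicates are described as biological.

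Depth was uneven. The TSS region, which is the first 400 nt of a transcript, held between 926904 and 3246052 reads per library over all listed genes, and the gene body, which runs from there to the transcript end, held between 7425419 and 16249142. For the cohesin genes this came to 14 to 456 reads per gene and library in the TSS region and 27 to 8913 in the gene body. *Kmt5b* itself had gene body values of 30.6, 35.4 and 38.5 TPM in the Ctrl libraries against 37.8, 35.0 and 42.6 TPM in *Kmt5b* sKO. These values sum over the whole gene and do not isolate a floxed part, so they check no label. Ctrl replicate 3 stood apart: its gene body reads differed from those of the other Ctrl libraries with a chi-square per degree of freedom of 104 and 95.9, against 25.8 between Ctrl replicates 1 and 2. Of the 7 muscle stem cell markers examined all were listed, with a summed gene body value of 1224 to 1888 TPM in the Ctrl libraries against 1521 to 1869 TPM in *Kmt5b* sKO. *Myod1* made up most of this sum, at a mean of 1091 TPM in Ctrl and 1179 TPM in *Kmt5b* sKO. The means of *Sdc4* (36.3 and 49.7 TPM) and *Itga7* (125 and 127 TPM) were also higher in *Kmt5b* sKO. Those of *Pax7* (38.6 and 27.8 TPM), *Myf5* (67.2 and 57.1 TPM), *Vcam1* (27.0 and 20.9 TPM) and *Cdh15* (186 and 177 TPM) were lower. Each of the 7 markers overlapped between the groups.

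Cohesin is a ring that holds sister chromatids together from their replication until anaphase and also extrudes the chromatin loops of interphase. SMC1A, SMC3 and RAD21 form the ring, STAG1 or STAG2 binds to it, NIPBL loads it and WAPL releases it. During S phase ESCO2, and throughout the cell cycle ESCO1, acetylate SMC3, and sororin, the product of *Cdca5*, then protects acetylated rings from WAPL. *Esco2* and *Cdca5* are known as genes of dividing cells, whereas ring, loader and release factor serve dividing and resting cells alike.

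In Ctrl MuSCs the gene body values, in TPM and thus per length, spanned a several-fold range. *Rad21* was highest at 48.6 ± 10.5 TPM (SD, n = 3). *Wapl* at 28.2 ± 2.04, *Smc3* at 25.4 ± 3.11 and *Nipbl* at 24.1 ± 1.91 TPM followed, and each overlapped its neighbour in this order. *Stag1* at 19.6 ± 0.617, *Cdca5* at 19.1 ± 5.31, *Smc1a* at 18.3 ± 3.39, *Stag2* at 16.6 ± 0.585 and *Esco1* at 15.9 ± 1.79 TPM formed a run in which every neighbour overlapped. *Esco2* was lowest at 8.81 ± 0.930 TPM, below *Esco1* in all libraries. The ranges of adjacent genes were apart only between *Rad21* and *Wapl*, *Nipbl* and *Stag1*, and *Esco1* and *Esco2*.

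The acetyltransferases parted in the *Kmt5b* sKO libraries. *Esco2* (GRCm38, chr14:65819038-65833994, minus strand) had gene body values of 9.35, 9.35 and 7.74 TPM in the Ctrl libraries against 2.90, 2.83 and 3.74 TPM in *Kmt5b* sKO. The groups did not overlap, and the *Kmt5b* sKO mean of 3.16 ± 0.506 TPM was 0.358 of the Ctrl mean, a log2 fold change of -1.35. Log2 fold changes in both regions are of the value + 0.5, which understates the change of low genes. Within each library's ranking of all genes past the filter, *Esco2* stood at the 30.6th to 32.8th percentile in Ctrl and at the 10.9th to 14.8th in *Kmt5b* sKO. *Esco1*, on chromosome 18, had 13.9, 17.4 and 16.4 TPM in the Ctrl libraries against 18.1, 15.8 and 16.7 TPM in *Kmt5b* sKO. Its groups overlapped, with a log2 fold change of 0.09 ± 0.14 (SE; 95% interval -0.24 to 0.42; limma adjusted p = 0.834).

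*Cdca5* (chr19:6084983-6091777, plus strand) fell in the gene body. Its values were 23.6, 20.3 and 13.2 TPM in the Ctrl libraries against 6.61, 9.07 and 7.05 TPM in *Kmt5b* sKO, so that the highest *Kmt5b* sKO library lay below the lowest Ctrl library, replicate 3. The *Kmt5b* sKO mean was 0.397 of the Ctrl mean, and the log2 fold change was -1.25 ± 0.24 (SE; 95% interval -1.80 to -0.70; limma adjusted p = 0.0746). Between 38 and 221 reads per library lay behind these values. The call was lost without Ctrl replicate 1, without Ctrl replicate 2 and without any single *Kmt5b* sKO replicate, where the adjusted p reached 0.239. Without Ctrl replicate 3 it was 0.0260, and the log2 fold change stayed between -1.49 and -1.08 in all these fits.

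The release factor and the loader overlapped between the genotypes. *Wapl* (chr14:34673928-34747983, plus strand), whose product opens the ring, had 26.1, 30.2 and 28.3 TPM in the Ctrl libraries against 31.5, 27.2 and 26.7 TPM in *Kmt5b* sKO. *Nipbl* (chr15:8291225-8444463, minus strand), the loader, had 21.9, 25.1 and 25.3 TPM in the Ctrl libraries against 26.7, 26.1 and 20.6 TPM in *Kmt5b* sKO. The groups of both genes overlapped, and the 95% interval of the log2 fold change ran from -0.29 to 0.32 for *Wapl* (limma adjusted p = 0.980) and from -0.33 to 0.36 for *Nipbl* (limma adjusted p = 0.984).

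The 5 genes of the ring and its STAG subunits all had negative log2 fold changes in the gene body, and none passed the threshold. *Smc1a* (chrX:152016428-152062694, plus strand), one of the ATPases of the ring, had 18.3, 21.7 and 14.9 TPM in the Ctrl libraries against 9.94, 12.8 and 12.02 TPM in *Kmt5b* sKO. Its groups did not overlap, with a log2 fold change of -0.63 ± 0.18 (SE; limma adjusted p = 0.150 in the fit that kept X and Y). *Smc3* (chr19:53600398-53645833, plus strand), the other ATPase and the subunit that is acetylated, had 28.2, 25.9 and 22.02 TPM in the Ctrl libraries against 21.8, 23.1 and 22.8 TPM in *Kmt5b* sKO, which overlapped (log2 fold change -0.16 ± 0.13, SE; limma adjusted p = 0.648). *Rad21* (chr15:51962605-51991760, minus strand), the subunit that separase cuts, had 50.3, 58.2 and 37.3 TPM in the Ctrl libraries against 43.1, 38.8 and 40.4 TPM in *Kmt5b* sKO. It overlapped as well, through Ctrl replicate 3, with a log2 fold change of -0.23 ± 0.18 (SE; limma adjusted p = 0.615).

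The STAG genes, of which a ring carries the product of only one, had the smallest spread relative to their level in the Ctrl libraries. *Stag1* (chr9:100643448-100958545, plus strand) had 18.9, 20.1 and 19.8 TPM in the Ctrl libraries against 14.5, 15.5 and 13.7 TPM in *Kmt5b* sKO. Its groups lay clearly apart, yet the log2 fold change of -0.42 ± 0.12 (SE) had a limma adjusted p of 0.156. *Stag2* (chrX:42150701-42277185, plus strand) had 16.2, 17.3 and 16.5 TPM in the Ctrl libraries against 14.7, 15.8 and 13.01 TPM in *Kmt5b* sKO, which did not overlap either, with a log2 fold change of -0.20 ± 0.13 (SE; limma adjusted p = 0.543 with X and Y kept). On the recovered reads, *Smc1a* was called by edgeR (adjusted p = 0.0622) and DESeq2 (adjusted p = 0.00681), as was *Stag1* (0.0866 and 0.0108). With X and Y kept, as for *Smc1a*, edgeR called 366 of 12877 genes lower and DESeq2 596 of 12872. On autosomes, as for *Stag1*, they called 353 of 12451 and 582 of 12449 lower. Limma on all libraries called 172 lower in either fit. *Smc1a* was also called by limma without Ctrl replicate 3 (adjusted p = 0.0694), where 516 of 12877 genes were called lower. *Stag1* overlaps 3 unconfirmed transcripts on its own strand, whose reads cannot be told apart from its own, and *Smc1a* holds a pseudogene on the opposite strand.

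**Figure D1:**
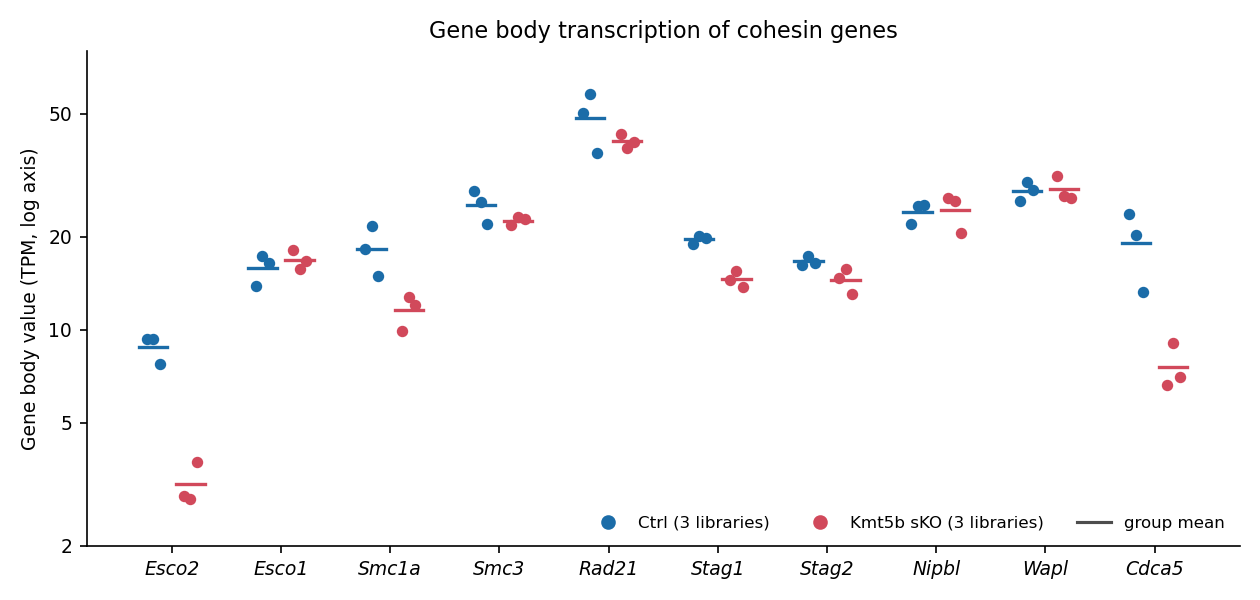
Gene body value in TPM (log axis) of each cohesin gene in 3 Ctrl (blue) and 3 *Kmt5b* sKO (red) libraries, 1 point per library, with the group mean as a line. *Esco2* and *Cdca5* have the widest gaps between groups, at 0.358 and 0.397 of the Ctrl mean. The groups of *Esco1*, *Smc3*, *Rad21*, *Nipbl* and *Wapl* overlap.

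For 5 of the 10 genes RefSeq (GRCm38.p6) gave a promoter in the table used here. Of these *Cdca5*, *Stag1* and *Wapl* are shown, since *Cdca5* fell in the gene body, *Stag1* was lower there without overlap or a call, and *Wapl* overlapped. Each run is the 250 bases before the RefSeq start on the plus strand, at chr19:6084847-6085096, chr9:100643198-100643447 and chr14:34673678-34673927. Capitals mark matches on either strand to words searched for because they are known from promoters of cell cycle genes: TTTCCCGC, TTTCGCGC, TTTGCCGC or TTTGGCGC (bound by E2F factors), TTTGAA or TTCGAA (the cell cycle homology region, CHR) and CCAAT.
Cdca5: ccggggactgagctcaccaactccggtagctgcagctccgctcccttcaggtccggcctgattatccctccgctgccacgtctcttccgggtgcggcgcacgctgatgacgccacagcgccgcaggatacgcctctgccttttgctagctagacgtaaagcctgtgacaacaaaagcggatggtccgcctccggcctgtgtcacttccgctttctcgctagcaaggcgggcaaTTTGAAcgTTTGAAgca
Stag1: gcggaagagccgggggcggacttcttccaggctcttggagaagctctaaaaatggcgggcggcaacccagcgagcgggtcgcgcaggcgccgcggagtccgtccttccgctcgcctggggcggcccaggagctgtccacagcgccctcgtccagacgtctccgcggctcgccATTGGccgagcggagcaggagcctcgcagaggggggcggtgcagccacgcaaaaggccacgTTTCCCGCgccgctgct
Wapl: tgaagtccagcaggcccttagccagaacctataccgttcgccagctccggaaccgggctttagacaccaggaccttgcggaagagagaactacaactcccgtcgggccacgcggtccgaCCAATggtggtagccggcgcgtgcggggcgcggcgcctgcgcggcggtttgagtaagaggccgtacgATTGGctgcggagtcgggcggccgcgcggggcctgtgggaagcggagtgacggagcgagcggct
*Cdca5* holds TTTGAA at 17 and again at 9 bases before the RefSeq start, and no word of the other kinds. *Stag1* holds TTTCCCGC at 17 bases and the complement of CCAAT at 78 bases before the start. *Wapl* holds CCAAT at 131 bases and its complement at 64 bases before the start, and neither an E2F nor a CHR word. Over 32851 promoter windows of this length, 1.86% held an E2F word, 17.1% a CHR word and 33.8% a CCAAT word. A match says that the letters are there, not that a factor binds. The isoform listed for *Cdca5* starts inside the window shown, upstream of the RefSeq start.

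In counts, 1 of the 9 genes other than *Esco2* passed the threshold in the gene body, namely *Cdca5*, which was lower. With *Esco2* it was 2 of the 8 genes on autosomes. Since *Esco2* was chosen on this contrast, nothing is read from its call. Over all 12451 genes of the fit on autosomes, 1.38% were called lower. Of the 2 genes on X, 0 passed in the fit with X and Y kept, in which 1.34% of 12877 genes were called lower, although 1 of them (*Smc1a*) had an unadjusted p under 0.05. The groups did not overlap, with *Kmt5b* sKO lower, for 5 of the 10 genes, or for 4 of 9 without *Esco2*, against 9.44% of all genes. No cohesin gene had *Kmt5b* sKO libraries that were all higher.

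In the TSS region *Esco2* had 42.6, 24.1 and 26.5 RPM in the Ctrl libraries against 12.5, 9.24 and 15.2 RPM in *Kmt5b* sKO, without overlap. The mean was 0.395 of the Ctrl mean, and Ctrl replicate 1 was the highest by far. The lowest *Esco2* value, that of *Kmt5b* sKO replicate 2, rested on 14 reads, for which an exact 95% Poisson interval runs from 5.05 to 15.5 RPM and covers counting error only. *Esco1* had 29.3, 30.5 and 28.8 RPM in the Ctrl libraries against 32.8, 35.0 and 19.8 RPM in *Kmt5b* sKO, on both sides of Ctrl. *Stag1* had 93.0, 64.9 and 86.4 RPM in the Ctrl libraries against 56.1, 45.6 and 58.4 RPM in *Kmt5b* sKO, and *Smc1a* 45.0, 44.8 and 62.7 RPM in the Ctrl libraries against 29.8, 37.0 and 27.1 RPM in *Kmt5b* sKO. Neither overlapped, and neither passed the threshold (log2 fold change -0.60 ± 0.23, SE, limma adjusted p = 0.285 for *Stag1*; -0.68 ± 0.25, SE, limma adjusted p = 0.248 for *Smc1a*).

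*Cdca5* overlapped here, unlike in its gene body. It had 24.2, 21.3 and 17.2 RPM in the Ctrl libraries against 7.54, 23.1 and 15.2 RPM in *Kmt5b* sKO, where replicate 2 lay within the Ctrl range, and the log2 fold change was -0.56 ± 0.36 (SE; limma adjusted p = 0.648). The pausing index, the TSS value divided by the gene body value, was 1.02, 1.046 and 1.30 for *Cdca5* in the Ctrl libraries against 1.14, 2.55 and 2.15 in *Kmt5b* sKO. The groups overlapped by *Kmt5b* sKO replicate 1, and the log2 difference of the index was 0.72 ± 0.33 (SE) with a limma adjusted p of 0.9997 and an unadjusted p of 0.0586.

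The other genes overlapped in the TSS region. *Stag2* ranged from 12.7 to 28.8 RPM in Ctrl and from 9.83 to 15.2 RPM in *Kmt5b* sKO, *Rad21* from 26.4 to 35.6 and from 26.4 to 30.2 RPM, *Wapl* from 21.1 to 25.3 and from 20.5 to 31.1 RPM, *Nipbl* from 9.93 to 18.4 and from 12.9 to 18.4 RPM, and *Smc3* from 7.99 to 10.3 and from 8.74 to 14.8 RPM. *Smc3*, *Nipbl* and *Wapl* had positive log2 fold changes there (0.31, 0.27 and 0.18), all with a limma adjusted p of 0.839 or more. Of the 8 genes on autosomes 1 was called lower, against 0.731% of all genes, and it was *Esco2*, which was chosen on its low values, so nothing is read from this count. Of the other 7 on autosomes 0 were called by limma, edgeR or DESeq2, and 1 (*Stag1*) had an unadjusted p under 0.05. Of the 2 on X, 0 were called, against 0.699% of all genes with X and Y kept, and by edgeR and DESeq2 likewise 0. Groups did not overlap, with *Kmt5b* sKO lower, for 3 of the 10 genes, or for 2 of 9 without *Esco2*, against 5.34% of all genes.

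The pausing index separated the cohesin genes from each other more than the genotypes. In Ctrl it was highest for *Stag1* at 4.17 ± 0.858 (SD, n = 3), *Esco2* at 3.52 ± 0.992 and *Smc1a* at 2.92 ± 1.14, and lowest for *Nipbl* at 0.527 ± 0.180 and *Smc3* at 0.362 ± 0.0683. For *Esco2* it was 4.56, 2.58 and 3.43 in the Ctrl libraries against 4.30, 3.27 and 4.06 in *Kmt5b* sKO, so TSS and gene body were lower in about the same proportion. For *Stag1* it was 4.91, 3.23 and 4.36 in the Ctrl libraries against 3.87, 2.95 and 4.25 in *Kmt5b* sKO. By limma 0 of the 10 genes were called for the index, 0 had an unadjusted p under 0.05 and the groups of all 10 overlapped, and 0% of all 11698 genes on autosomes were called, where 452 had an unadjusted p under 0.05.

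**Figure D2:**
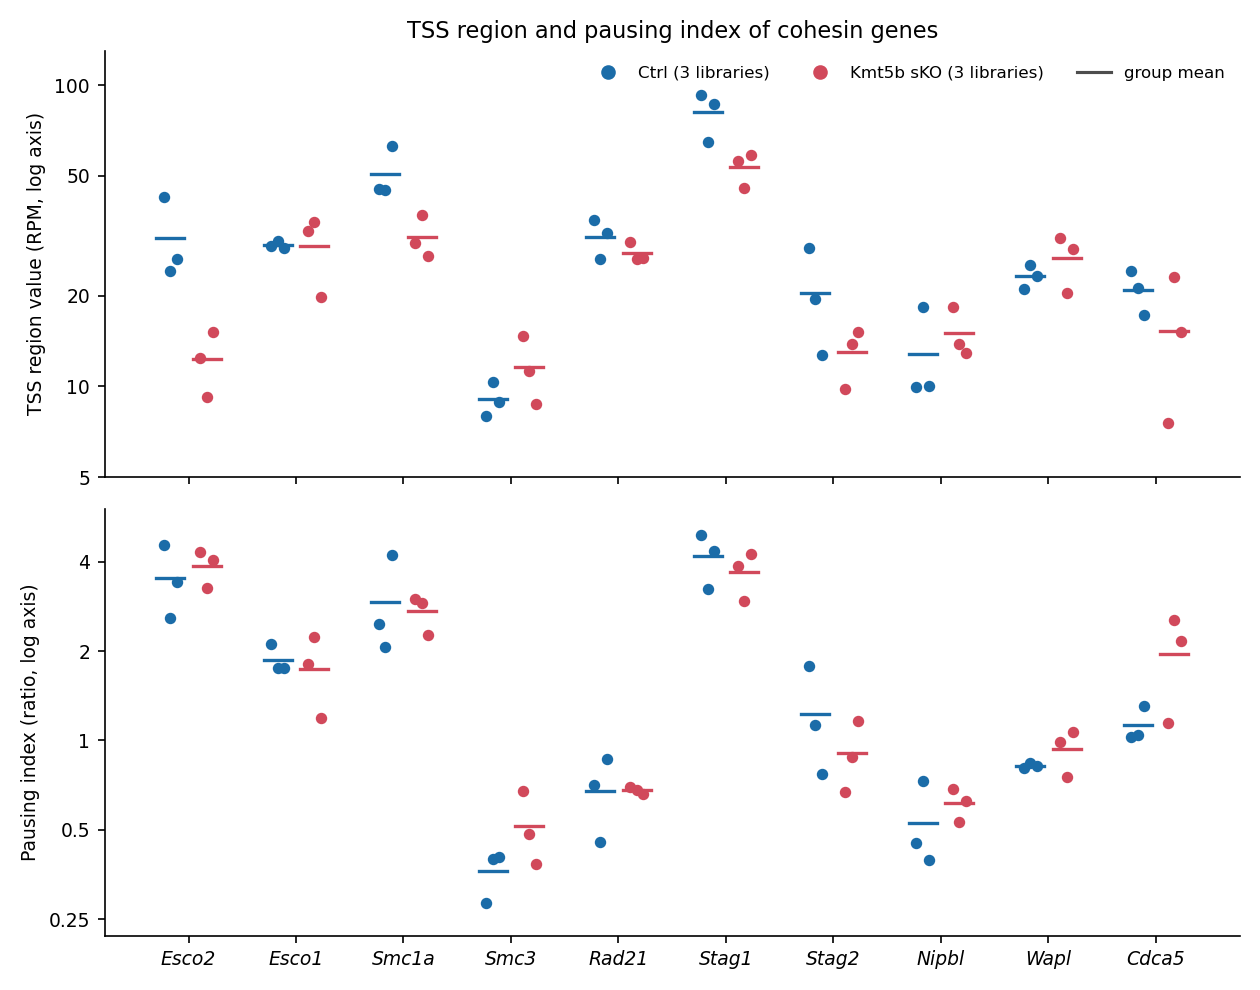
TSS region value in RPM (top, log axis) and pausing index as a ratio (bottom, log axis) of each cohesin gene, 1 point per library for 3 Ctrl (blue) and 3 *Kmt5b* sKO (red) libraries, with group means as lines. In the TSS region *Esco2*, *Smc1a* and *Stag1* have groups that do not overlap, whereas the pausing index overlaps for all 10 genes.

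The pattern of differences can be read across both regions. *Esco2*, *Smc1a* and *Stag1* were lower in gene body and TSS region without overlap, *Cdca5* and *Stag2* in the gene body only, and *Esco1*, *Smc3*, *Rad21*, *Nipbl* and *Wapl* in neither. A difference between these genes in their response was not tested. Values are relative to a fixed total per library, set apart for TSS region and gene body. The pausing index therefore cannot show a shift between the regions that all genes of a library share. In such bulk samples fewer cells of a type and less nascent RNA per cell cannot be told apart.

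**Figure D3:**
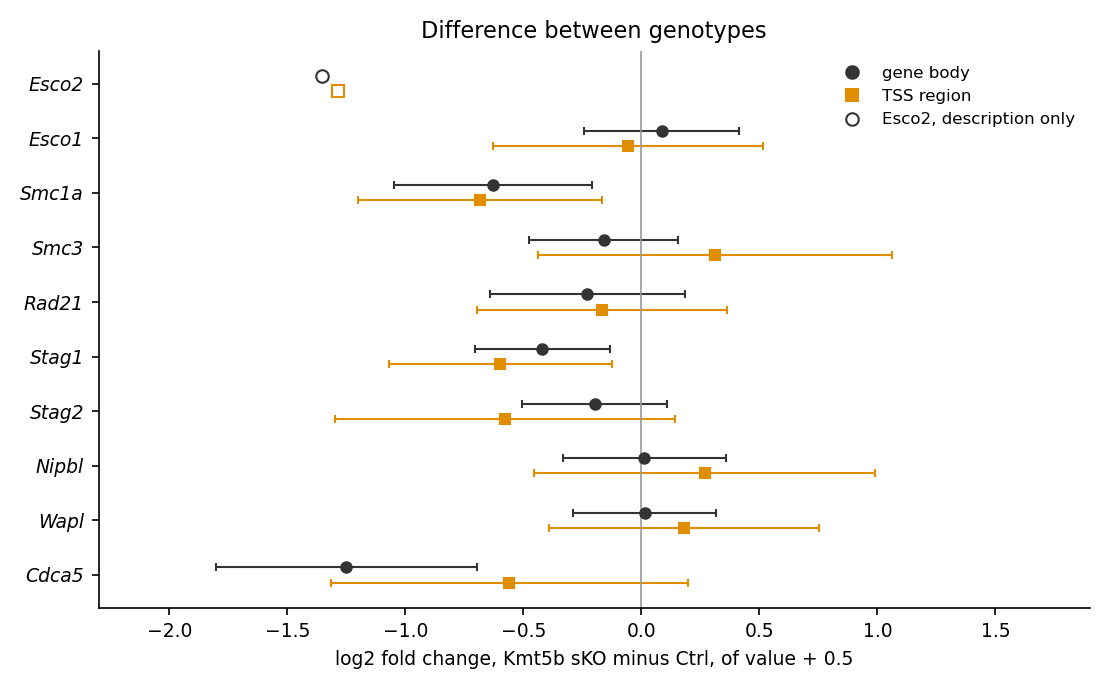
Log2 fold change (*Kmt5b* sKO minus Ctrl, of value + 0.5) of each cohesin gene in the gene body (circles) and the TSS region (squares), with the 95% interval from limma as bars. *Esco2* (open symbols, no interval) is shown as a description at -1.35 and -1.29, and the interval of *Cdca5* lies below 0 in the gene body and crosses it in the TSS region.

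Shares within a library do not depend on its total, whereas the log2 differences below do in part, through the added 0.5. With 0.1 added instead, *Esco2* minus *Esco1* differed by -1.55 between genotypes, and with 1 added by -1.33. *Esco2* made up 40.2%, 35.0% and 32.0% of the summed gene body TPM of both acetyltransferases in Ctrl, and 13.8%, 15.2% and 18.3% in *Kmt5b* sKO. As log2(TPM + 0.5), *Esco2* lay 0.81 ± 0.25 (SD, n = 3) below *Esco1* in the Ctrl libraries against 2.25 ± 0.22 below it in *Kmt5b* sKO. Against the mean of the ring and STAG genes, *Esco2* lay 1.37 ± 0.05 (SD, n = 3) below in the Ctrl libraries against 2.40 ± 0.23 below in *Kmt5b* sKO. The groups did not overlap in either case, and both are descriptions. The mean of the ring and STAG genes itself was 4.58 ± 0.15 (SD) on this scale in the Ctrl libraries against 4.26 ± 0.05 in *Kmt5b* sKO.

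The protector and the release factor shifted against each other in the same way. *Cdca5* made up 47.5%, 40.3% and 31.9% of the summed gene body TPM of *Cdca5* and *Wapl* in the Ctrl libraries against 17.3%, 25.0% and 20.9% in *Kmt5b* sKO. *Stag1* made up 53.9%, 53.8% and 54.6% of the sum with *Stag2* in the Ctrl libraries against 49.6%, 49.5% and 51.4% in *Kmt5b* sKO, a small difference of 3.94 percentage points that exceeded the SD of 0.462 and 1.04 points within the groups. *Smc1a* lay 0.47 ± 0.19 (SD) below *Smc3* on the log2 scale in the Ctrl libraries against 0.94 ± 0.14 below it in *Kmt5b* sKO, without overlap. These ratios were set side by side with no test, since 3 against 3 libraries allow no exact permutation p under 0.1.

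**Figure D4:**
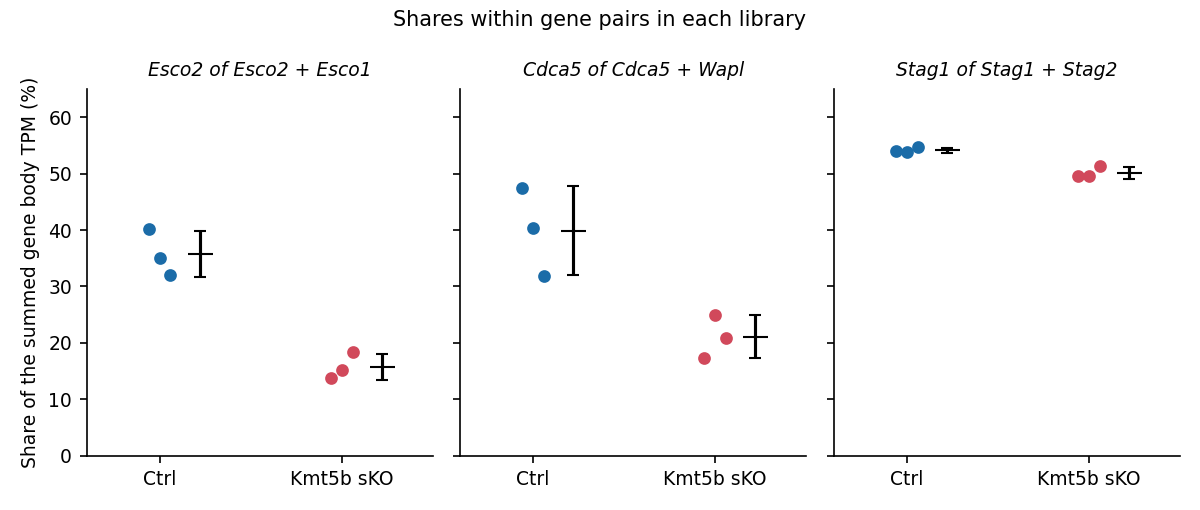
Share of the first gene in the summed gene body TPM of a pair (%), 1 point per library for 3 Ctrl (blue) and 3 *Kmt5b* sKO (red) libraries, with mean and SD in black. *Esco2* goes from 35.8% to 15.8% and *Cdca5* from 39.9% to 21.1% on average, while *Stag1* stays near an equal share, from 54.1% to 50.2%.

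Further genes of the cohesin cycle were taken from a list of 21, of which 20 were in the table and 18 were tested. *Smc1b* and *Rec8*, subunits of meiotic cohesin, were under the filter on low values. In the gene body 4 of 18 (22.2%) were called and all 4 were lower, against 1.38% of all genes called lower, and the median log2 fold change of the list was -0.62, against 0.02 over all genes. *Sgo1* and *Sgo2a*, the shugoshins that guard centromeric cohesin, had a mean of 24.8 and 15.5 TPM in the Ctrl libraries against 12.1 and 5.95 TPM in *Kmt5b* sKO (log2 fold changes -1.001 ± 0.14 and -1.27 ± 0.22, SE; limma adjusted p = 0.0610 and 0.0655). *Espl1*, the separase that cuts RAD21, had 21.7, 17.2 and 12.8 TPM in the Ctrl libraries against 6.67, 8 and 7.28 TPM in *Kmt5b* sKO (log2 fold change -1.15 ± 0.21, SE; limma adjusted p = 0.0691). *Wdhd1*, a replisome component that aids cohesion at forks, had 14.3, 13.6 and 11.0 TPM in the Ctrl libraries against 5.24, 8.47 and 5.55 TPM in *Kmt5b* sKO (log2 fold change -0.98 ± 0.21, SE; limma adjusted p = 0.0897).

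The loader partner *Mau2* and the deacetylase *Hdac8* lay near 0 in the gene body, at log2 fold changes of 0.11 and -0.03. *Pds5a* and *Pds5b*, cofactors of both release and protection, were at -0.20 and -0.35, and none of these passed the threshold. In the TSS region 1 of 18 was called lower, against 0.731% of all genes, namely *Sgo1*, with 77.0, 55.7 and 61.6 RPM in the Ctrl libraries against 38.4, 29.7 and 32.2 RPM in *Kmt5b* sKO (log2 fold change -0.94 ± 0.23, SE; limma adjusted p = 0.0718). The gene body count of 4 became 0 without Ctrl replicate 1 or any one *Kmt5b* sKO replicate. It became 1 (*Sgo1*) without Ctrl replicate 2 and 8 without Ctrl replicate 3, where 66 and 506 of all 12451 genes were called lower.

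All 30 genes of a list of replication and mitosis genes had negative log2 fold changes in the gene body, against 46.2% of all genes. Of the list 16 of 30 (53.3%) were called lower, against 1.38% of all genes, and the median was -0.98. The counts were 7 of 14 for S phase genes and 9 of 16 for genes of G2 and mitosis. The mean of the list, as log2(TPM + 0.5), was 5.34, 5.11 and 4.83 in the Ctrl libraries against 4.01, 4.22 and 4.31 in *Kmt5b* sKO, without overlap. *Esco2* lay 1.88 ± 0.14 (SD, n = 3) below this mean in the Ctrl libraries against 2.32 ± 0.15 below it in *Kmt5b* sKO, again without overlap, and *Cdca5* 0.84 ± 0.18 and 1.18 ± 0.21 below it, with overlap. Single genes of the list ran from a log2 fold change of -1.44 (*Bub1*) to -0.02 (*Ccnb1*). The -1.35 of *Esco2* and the -1.25 of *Cdca5* lay within this range. The part of the cell cycle list in the values of *Esco2* and *Cdca5* was not tested. The count of 16 became 0 without Ctrl replicate 1 or any one *Kmt5b* sKO replicate. It became 4 without Ctrl replicate 2 and 25 without Ctrl replicate 3, where 66 and 506 of all 12451 genes were called lower.

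**Figure D5:**
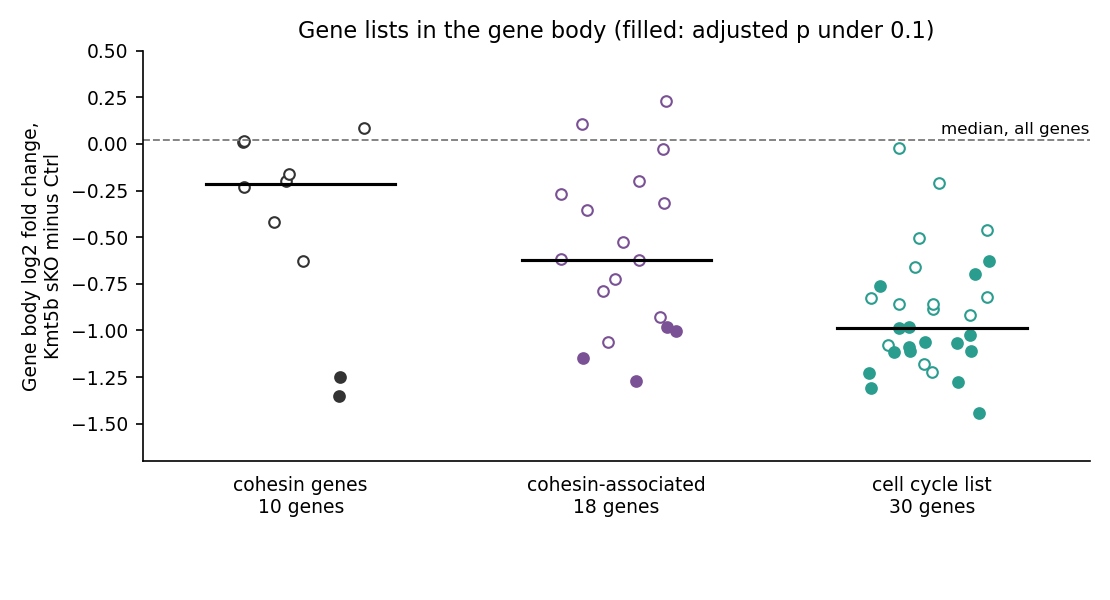
Gene body log2 fold change (*Kmt5b* sKO minus Ctrl) of the cohesin genes, the cohesin-associated genes and the cell cycle list, 1 point per tested gene, spread sideways at random, with the list median as a black line. Filled points have an adjusted p under 0.1. The dashed line is the median of all genes at 0.02, and the list medians are -0.21, -0.62 and -0.98. The lowest cohesin gene is *Esco2*, which was chosen for this, so its fill is no test.

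Markers of other cells were examined in the gene body. All 5 mature fibre genes were listed and none was at 0, with a sum of 65.5 to 232 TPM in the Ctrl libraries against 196 to 479 TPM in *Kmt5b* sKO. *Myh1* made up most of this sum, at a mean of 112 TPM in Ctrl and 266 TPM in *Kmt5b* sKO. Its groups overlapped (log2 fold change 1.32 ± 0.50, SE, limma adjusted p = 0.253). Both endothelial markers summed to 1.83 to 2.96 TPM in the Ctrl libraries against 3.74 to 4.05 TPM in *Kmt5b* sKO, which did not overlap. These values are low, with *Cdh5* at 0.23 to 1.01 TPM, and *Pecam1* was not called (limma adjusted p = 0.486). In the TSS region *Pecam1* went the other way, with 0.73, 1.72 and 1.14 RPM in Ctrl against 0, 0.66 and 0.46 RPM in *Kmt5b* sKO. Of the 3 fibro-adipogenic markers 2 were listed, with 3.83 to 8.62 and 4.08 to 6.67 TPM, and of the 3 immune markers only *Cd68* was, with 214 to 402 and 319 to 326 TPM. The part of such cells in the values of the cohesin genes was not tested.

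Over the 6 libraries, the genes whose gene body values were most like those of *Esco2* were *Smc2* (Pearson r = 0.996), which encodes an ATPase of condensin, *Tpst1* (0.996), a tyrosylprotein sulfotransferase, *Rbm45* (0.994), *Ska3* (0.992), of the kinetochore complex that follows microtubules, and *Rbbp8* (0.991), which encodes the DNA end resection factor CtIP. Pearson r follows the shape over the libraries and not the size of the difference, which varied among these genes. *Smc2* had 19.0, 20.0 and 16.1 TPM in the Ctrl libraries against 7.75, 8.29 and 9.21 TPM in *Kmt5b* sKO. *Ska3* ran from 12.61 to 14.63 TPM in Ctrl and from 6 to 6.71 TPM in *Kmt5b* sKO. The differences were smaller for *Tpst1* (7.55 to 8.33 and 5.29 to 6.09 TPM) and *Rbbp8* (13.78 to 14.88 and 9.7 to 10 TPM). For *Rbm45* the ranges were 21.07 to 22.07 and 18.55 to 19.03 TPM. Among the cohesin genes on autosomes the likeness was 0.926 for *Cdca5* and 0.913 for *Stag1*, 0.686 for *Smc3*, 0.598 for *Rad21*, -0.14 for *Wapl*, -0.22 for *Nipbl* and -0.39 for *Esco1*. These r values are over 6 points that share the libraries and the split by genotype, and are descriptions.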

How the data were processed

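Nascent RNA of 3 Ctrl and 3 *Kmt5b* sKO libraries was measured by PRO-seq. The authors used Trimmomatic 0.39 for trimming and STAR 2.6.1d for alignment to GRCm38 (1 random position for multi-mapping reads), deduplicated with Picard 2.18.16, counted the sense strand of protein-coding isoforms and listed 1 isoform per gene. Versions are from the submitters' processing notes. The deposited TSS values are RPM, although headed TPM, and for regions of equal length both differ by a constant only. The deposited gene body values are TPM. Replicates were not pooled.

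X and Y genes were excluded, following the methods of the study. Genes needed an average of 0.5 or more in each region, which left 12451. For *Smc1a*, *Stag2* and *Hdac8* a second fit retained X and Y. Log2(value + 0.5) entered limma 3.58.1 (R 4.3.3, moderated with an intensity trend) by genotype alone. A call is a Benjamini-Hochberg adjusted p below 0.1. The log2 pausing index was fitted for genes with no value of 0. Whole reads were recovered, within the rounding of the values to 2 decimals, for 99.8% to 100% of TSS values and, among bodies under 2000 nt, for 96.9% to 99.2% of gene body values. On these reads edgeR 4.0.16 called 748 genes in the gene body and 279 in the TSS region, and DESeq2 1.42.0 called 1295 and 295. The limma step was checked on simulated data. The members and the lists of genes were chosen with earlier results of these data known. Named are all 10 cohesin genes, the cohesin-associated genes past the threshold, and the 5 genes most like *Esco2*. *Mau2*, *Hdac8*, *Pds5a* and *Pds5b* were named after their values were seen. Other alternatives were other pseudocounts, no filter, no trend, median centring, a threshold of 0.05, a replicate block and each library left out. Python 3.11.15 with numpy 2.4.6, pandas 2.3.3, scipy 1.17.1 and matplotlib 3.10.9 was used.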

Additional observations from a re-analysis of the deposited data

How the results depend on the processing

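Depth limits the TSS region, where *Esco2*, *Cdca5*, *Smc3*, *Nipbl* and *Stag2* rested on as few as 14, 23, 17, 21 and 21 reads in a library. At an adjusted p under 0.05 all counts were 0: cohesin genes on autosomes in the gene body and the TSS region, cohesin-associated genes in both, and cell cycle genes in the gene body. Of all 12451 genes limma called only 1 in the gene body and 64 in the TSS region at this threshold. A count of 0 in the gene body therefore says little about a list. Replicate numbers are shared between the groups, but same-numbered libraries deviated from their group means with correlations of -0.15, -0.17 and -0.33, so the numbers were not taken as pairs. With the replicate number as a block those counts were also 0, as limma called 0 genes in either region (1441 and 1141 at an unadjusted p under 0.05), and no library correlated best with its own number. With 1 library left out, the counts of cohesin genes on autosomes, *Esco2* included, ranged from 0 to 2 in the gene body. In the TSS region they ranged from 0 to 1. The gene body count of the genes on X ranged from 0 to 1. For cohesin-associated genes the ranges were 0 to 8 in the gene body and 0 to 3 in the TSS region. For cell cycle genes in the gene body the range was 0 to 25. Without a filter or without a trend, the TSS counts of 1 cohesin gene and 1 cohesin-associated gene became 0. With edgeR and DESeq2 the count on X in the gene body was 1 each. Of cohesin-associated genes DESeq2 called 9 in the gene body, and in the TSS region edgeR called 2 and DESeq2 3. The counts of cell cycle genes were 25 and 27. Among all genes on autosomes edgeR called 353 of 12451 lower in the gene body and 150 in the TSS region. DESeq2 called 582 of 12449 and 161 of 12448 lower, and limma 172 and 91 of 12451. With libraries centred on their median, 2 cohesin-associated genes were called in the TSS region, where 122 of 12451 genes were called lower. Over all genes, leaving out 1 library gave 0 gene body calls without Ctrl replicate 1 or any one *Kmt5b* sKO replicate, 261 without Ctrl replicate 2 and 836 without Ctrl replicate 3. Directions turned only for values that were not called. In the gene body, *Nipbl* was -0.0057 with edgeR and -0.013 with DESeq2, and *Wapl* was -0.0081 and -0.015. With 1 library left out, the log2 fold change in the gene body ranged from -0.054 to 0.13 for *Nipbl*, from -0.060 to 0.063 for *Wapl* and from -0.0044 to 0.15 for *Esco1*. That of *Esco1* in the TSS region ranged from -0.21 to 0.20. For the pausing index the ranges were -0.35 to 0.10 for *Esco1*, -0.039 to 0.37 for *Esco2*, -0.26 to 0.26 for *Smc1a* and -0.20 to 0.26 for *Rad21*. *Esco2* minus *Esco1* differed by -1.44 between genotypes (-1.56 to -1.31 with 1 library left out) and *Esco2* minus the ring and STAG genes by -1.03 (-1.15 to -0.93). The cause of these shifts was not tested.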
